A study of Mus musculus with 11 samples.

Results

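The well-expressed unannotated loci are transcribed regions that carry an XLOC name and no gene name in the deposited tables, and that averaged at least 100 normalised reads over the 5 Dcr libraries. Of 18506 unannotated loci with an XLOC name, 1758 met this rule, out of 48942 features of all kinds. The loci were chosen by their measured mean level over Dcr KO lines 1, 3 and 4 and Dcr WT libraries 1 and 2, so that level is a description and not a result. All 1758 passed the filter for testing, which asked that 2 or more libraries reach a value of 1, and 1752 reached 1 in all 5 libraries. The same name was looked up in the table of the cMyc libraries, which listed 1745 of the loci and not the other 13.

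The series compared RNA from mouse embryonic stem cells that lack Dicer with RNA from wild-type cells, and set beside it a pair of libraries without and with cMyc. Its 11 samples hold 7 libraries of poly(A)-selected RNA and 4 chromatin samples, which are not analysed here. All groups are embryonic stem cells of strain 129S4/SvJae grown on gelatin without feeder cells. The groups used are Dcr KO (3 knockout lines, numbered 1, 3 and 4, with 1 paired-end library each), Dcr WT (2 paired-end libraries), cMyc KO (cMyc-/-, 1 single-end library) and cMyc flox (cMyc f/f, 1 single-end library). No label says that the 2 Dcr WT libraries came from separate cultures, so the spread between them may in part be technical. The p-values rest on the spread among the 3 Dcr KO lines and between these 2 libraries, drawn towards a trend over all features tested. With 1 cMyc KO and 1 cMyc flox library, that comparison has no replicate check.

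Dicer is the ribonuclease that cuts microRNA precursors into mature microRNAs, which in turn destabilise messenger RNAs and hold back their translation. Myc is a transcription factor that promotes the transcription of many genes in proliferating cells. An XLOC name is the kind of label that a transcript assembler gives to a locus it builds from reads, and a locus outside known genes can be a long non-coding RNA, a stretch of a longer transcript, an unrecorded exon or end of a known gene, or a transcribed repeat. The deposited tables give these loci no coordinates, length, strand or sequence, so which of these each locus is, where it lies and which bases it holds are not analysed here. Levels are therefore read counts and not per length, and a higher level of one locus than another can reflect its length.

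Recovered depth was 247574902, 278006158 and 251808298 reads in Dcr KO lines 1, 3 and 4, against 101815723 and 206721717 in Dcr WT libraries 1 and 2. It was 31633011 in cMyc KO and 24660365 in cMyc flox. Dicer1 had 8553, 9793 and 7743 normalised reads in the Dcr KO lines, against 20131 and 18792 in the Dcr WT libraries, and it changed by -1.17 ± 0.15 on the log2 scale (SE; adjusted p = 0.000556, limma). Reads of Dicer1 remained in every knockout line, and the labels do not say which part of the gene was removed. Myc had 10.9 normalised reads in cMyc KO against 470.04 in cMyc flox. Myc was also lower in Dcr KO, at 1253, 1054 and 443 against 10984 and 7478 in Dcr WT (log2 fold change -3.44 ± 0.39, limma adjusted p = 0.000289).

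Of 8 stem cell markers, 2 were called lower in Dcr KO and 0 higher, and their summed level was 849843 to 984851 in Dcr KO and 885678 to 1060667 in Dcr WT. Of 10 fibroblast markers, 9 were tested, 1 was higher and 6 were lower in Dcr KO. Their summed level was 2366 to 6230 in Dcr KO and 29985 to 41941 in Dcr WT, with Postn and Lum at 0 in at least 1 library. Of 9 endoderm markers, 5 were lower, with sums of 3047 to 4121 in Dcr KO and 4866 to 9332 in Dcr WT. Of 7 markers of the two-cell-like state, only 5 were found among the features. All 5 were higher, with sums of 12023 to 20884 in Dcr KO and 1151 to 5898 in Dcr WT. The summed levels of the fibroblast, endoderm and two-cell-like lists did not overlap between genotypes, while those of the stem cell list did, and the part of these lists in the differences described next was not tested. In bulk RNA, fewer cells of a type and less RNA per cell cannot be told apart.

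Most of the loci lay close to the threshold that chose them. Their mean over the 5 libraries ran from 100.02 to 16987 normalised reads, with a median of 183 and quartiles of 129 and 309, and 87 loci reached 1000. Of the 3 loci just inside the threshold, XLOC_018646 averaged 100.03 and the other two 100.02. The nearest loci outside averaged 99.96, 99.92 and 99.91. Both genotype means reached 100 at 1225 loci, that of Dcr KO alone at 342 and that of Dcr WT alone at 191. The last 2 sets had to differ between genotypes to enter with 1 mean below the threshold, and the mean over 5 libraries gives the 3 Dcr KO lines more weight than the 2 Dcr WT libraries.

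Together the 1758 loci took a small share of all normalised reads, 0.306% ± 0.049 in Dcr KO (SD, n = 3) and 0.292% ± 0.037 in Dcr WT (SD, n = 2). The share was 0.263%, 0.297% and 0.359% in lines 1, 3 and 4, and 0.266% and 0.318% in the Dcr WT libraries, so the genotypes overlap. The median locus had 176, 182 and 209 normalised reads in lines 1, 3 and 4, and 167 and 183 in Dcr WT libraries 1 and 2. In the shallower cMyc libraries the loci took 0.154% of normalised reads in cMyc KO and 0.209% in cMyc flox, with medians of 9.97 and 12.7 normalised reads per locus.

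More of these loci were higher than lower in Dcr KO. limma called 411 higher and 236 lower at an adjusted p under 0.05, which is 23.4% and 13.4% of 1758. Over all 42358 features tested, 16.9% were called higher and 14.8% lower. The median log2 fold change over the loci was 0.14, against 0.08 over all features tested. Every called locus had all 3 Dcr KO lines on one side of both Dcr WT libraries. Without KO line 4 the count of higher calls was 269, and without KO line 1 or line 3 the count of lower calls was 139 or 143. Of the 1225 loci with both genotype means of at least 100, 171 were called higher and 128 lower, with a median log2 fold change of 0.03. These calls covered 24.4% of those loci, against 31.7% of all features tested. Of these calls 57.2% were higher, against 53.3% over all features tested. Asking both means to reach 100 leaves out loci far apart between genotypes, among them every call past 10-fold. The choice itself thus lowered the share called, while the share over all features carries no such rule. Choosing loci by the mean of the 2 genotype means, which weights the genotypes equally, gave 1767 loci, with 362 called higher and 277 lower. Of these loci 36.2% were called, 56.7% of the calls were higher in place of 63.5%, and the median was 0.04.

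**Figure D1:**
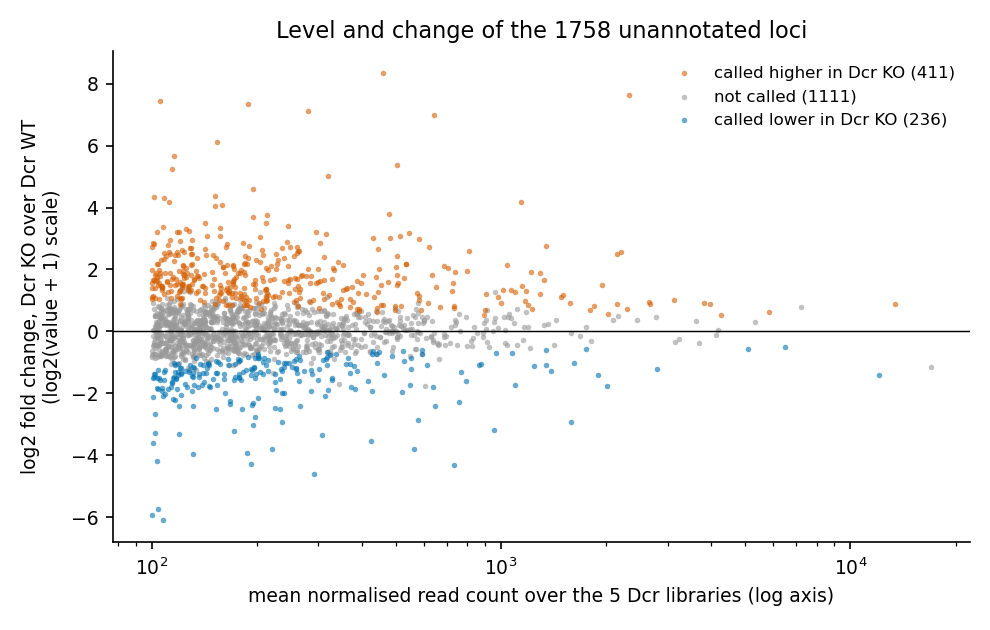
Mean normalised read count over the 5 Dcr libraries (log axis) against the log2 fold change of Dcr KO over Dcr WT for each of the 1758 loci, one point per locus, coloured by the limma call at an adjusted p under 0.05. The 411 loci called higher reach a log2 fold change of 8.34, the 236 called lower reach -6.08, and the 1111 not called lie between -1.77 and 1.44.

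Most called loci changed over 2-fold and few over 10-fold. Called loci that changed over 2-fold on the log2(value + 1) scale numbered 351 higher and 192 lower, 19.97% and 10.9% of the loci, against 12.3% and 10.3% of all features tested. Past 10-fold there were 27 higher and 14 lower, 1.54% and 0.796%, against 2.42% and 1.63% of all features tested. With no test applied, every Dcr KO line lay above both Dcr WT libraries at 635 loci (36.1%, against 30.0% of all features tested) and below both at 451 (25.7%, against 27.4%). Calls were more frequent at higher levels among these loci, and the reason was not tested. They were made at 34.6% of 981 loci with a mean of 100 to 200 and at 59.4% of the 32 loci at 2000 or more, of which 14 were higher and 5 lower.

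Set beside other classes held to the same mean of at least 100, the unannotated loci had a smaller share called than the other 4 classes, and the share of their calls that were higher lay below that of repeats and above the other three. Of 13556 coding features, 47.9% were called, and 49.7% of those calls were higher in Dcr KO. Of 1578 features of the non-coding catalogues, 41.0% were called, and 38.9% of those were higher. Among the unannotated loci 36.8% were called and 63.5% of the calls were higher. The share called higher was near that of coding features, 23.4% against 23.8%, while the share called lower was smaller, 13.4% against 24.1%. The median log2 fold change was 0.14 at the unannotated loci, -0.01 at coding features, -0.18 at catalogued non-coding features and -0.07 at 1077 pseudogenes, of whose calls 46.4% were higher. At 194 repeat features it was 0.35, above that of the unannotated loci, with 38.1% called and 74.3% of those calls higher. At the 16537 tested unannotated loci below the threshold it was 0.44, with 2417 called higher and 1121 lower. The classes share the lower bound and not the range of levels. Held to a mean of 100 to 500, 35.3% of 1531 unannotated loci were called, with 63.0% of calls higher and a median of 0.12. In that range 54.7% of 1941 coding features were called, with 31.5% of calls higher and a median of -0.49. For 1015 catalogued non-coding features these were 40.9%, 37.6% and -0.23. These are counts and medians beside each other, and no difference between classes was tested.

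The 2 largest rises on the log2(value + 1) scale were those of XLOC_015904 and XLOC_015901. XLOC_015904 had 730.2, 710.3 and 851 normalised reads in Dcr KO lines 1, 3 and 4, against 0 and 4.56 in Dcr WT libraries 1 and 2. Those values rest on 823, 930 and 1112 reads in Dcr KO, against 0 and 5 in Dcr WT. On the log2 scale the change was 8.34 ± 0.62 (SE; adjusted p = 4.11e-05, limma). XLOC_015901, the 24th most abundant of the loci, had 3991, 3515 and 4080 in Dcr KO against 12.1 and 28.3 in Dcr WT, a log2 change of 7.62 ± 0.32 (adjusted p = 7.08e-06, limma). With near-empty Dcr WT libraries, the size of the change at XLOC_015904 depended on the setting: it was 9.57 without Dcr WT library 2, 7.10 without Dcr WT library 1, 5.998 with a pseudocount of 10 and 10.12 with one of 0.1. At XLOC_015901 the change was 8.20 and 7.04 without those libraries, and with a pseudocount of 10 it was 7.05, the larger of the pair. Both loci were abundant in all 3 knockout lines and near the bottom of the range in both wild-type libraries. In the cMyc libraries they were also near 0, with 2 reads in cMyc KO and 0 in cMyc flox for XLOC_015904, and 1 and 0 for XLOC_015901.

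These 2 loci belong to a run of 7 unannotated loci with consecutive ID numbers that begins at XLOC_015901, a window chosen after its values were seen. All 7 were called higher in Dcr KO by limma, with log2 fold changes of 5.49 to 8.34, and 4 of them are above the mean of 100. Mean levels in the run were 97.5 to 3862 normalised reads in Dcr KO and 1.37 to 20.2 in Dcr WT. Of the 7, 6 are listed in the cMyc table, with no value above 1.81 in cMyc KO or 1.05 in cMyc flox.

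The 2 largest falls on the log2(value + 1) scale were those of XLOC_029303 and XLOC_018646. XLOC_029303 had 8.87, 4.58 and 0 normalised reads in Dcr KO lines 1, 3 and 4, against 213 and 310.4 in Dcr WT libraries 1 and 2. On the log2 scale the change was -6.08 ± 0.89 (SE; adjusted p = 0.00111, limma). XLOC_018646 had 1.77, 3.06 and 4.59 in Dcr KO against 183 and 308 in Dcr WT, a log2 change of -5.91 ± 0.57 (adjusted p = 0.000133, limma). Both were low in every knockout line and well detected in both wild-type libraries, and both entered near the threshold, since only the Dcr WT values lifted their means to 107 and 100.03. Their order was not fixed: by edgeR the log2 change was -5.88 at XLOC_029303 and -6.22 at XLOC_018646, and without Dcr KO line 4 it was -5.12 and -6.15. In the cMyc libraries both were detected in both genotypes. XLOC_029303 had 18.1 normalised reads in cMyc KO and 17.9 in cMyc flox, and XLOC_018646 had 22.7 in cMyc KO and 14.8 in cMyc flox.

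**Figure D2:**
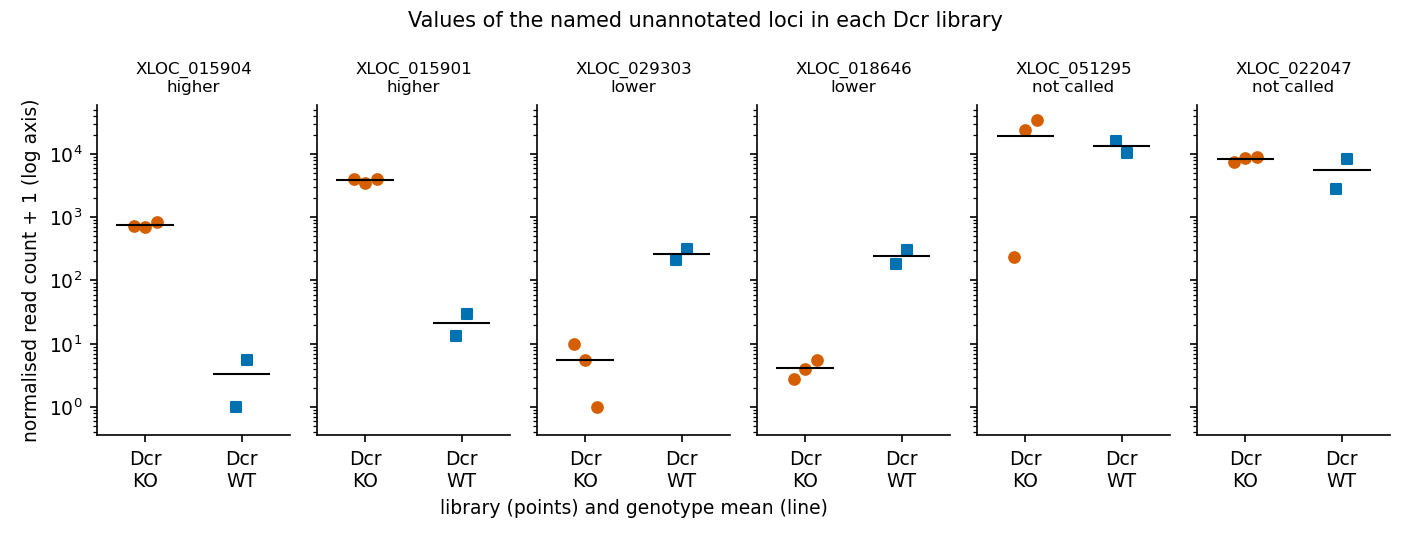
Normalised read count + 1 (log axis) of the 6 loci named by rule, in Dcr KO lines 1, 3 and 4 (circles, left to right) and Dcr WT libraries 1 and 2 (squares, left to right), with the mean of each genotype as a line. The first 4 loci separate the genotypes, while XLOC_051295 is low in Dcr KO line 1 alone and XLOC_022047 is low in Dcr WT library 1 alone.

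The loci called past 10-fold each had a mean below 100 in the genotype where they were lower, so they met the rule only through the other genotype, and their levels in the Dcr libraries are a description. The 27 called higher had genotype means of 164 to 3862 normalised reads in Dcr KO and 0 to 97.5 in Dcr WT. Of the 25 that the cMyc table lists, 23 had under 20 reads over both cMyc libraries, with median values of 1.81 in cMyc KO and 2.11 in cMyc flox. The 14 called lower had means of 3.14 to 99.5 in Dcr KO and 207 to 1686 in Dcr WT. All 14 are listed, 2 with under 20 reads, and their median values were 26.7 in cMyc KO and 26.4 in cMyc flox. By the ratio of genotype means, 5 of the 27 and 2 of the 14 stay below 10-fold. At the 1108 listed loci that were not called, the medians were 10.9 in cMyc KO and 13.7 in cMyc flox.

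A few loci were close to absent from wild-type cells. The Dcr WT mean was below 10 at 10 loci, which met the rule only through their values of 119 to 1286 in the single Dcr KO libraries, so that their direction was set by the choice. The cMyc table lists 8 of these, none with more than 5 reads over both libraries, and omits the other 2. One of them, the locus with rank 1649 by mean, was at 0 in both Dcr WT libraries, and had 127, 182 and 220.4 normalised reads in Dcr KO lines 1, 3 and 4. It was chosen for mention after its values were seen.

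Among the 30 most abundant loci, 13 were called higher, 4 lower and 13 not. Over tested features of all levels, 16.9% were called higher and 14.8% lower, and no share at a like level is given here. The second most abundant had 14379, 15142 and 19510 normalised reads in Dcr KO against 11258 and 6926 in Dcr WT, a log2 change of 0.87 ± 0.22 (SE; adjusted p = 0.0149, limma). The third had 8274, 7251 and 5961 in Dcr KO against 14668 and 24398 in Dcr WT, a log2 change of -1.41 ± 0.22 (adjusted p = 0.00170, limma). At both loci the 3 knockout lines lay on one side of both wild-type libraries, and the Dcr WT libraries stood further apart from each other, as a ratio, than the knockout lines did.

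The 2 most abundant loci that were not called each had 1 library far from its group. XLOC_022047, the fourth most abundant, had 7447, 8522 and 8989 normalised reads in Dcr KO lines 1, 3 and 4, against 2770 and 8364 in Dcr WT libraries 1 and 2. Its log2 fold change was 0.78 ± 0.36 (limma adjusted p = 0.129), and without Dcr WT library 2 it was 1.58 (limma adjusted p = 9.01e-06, with the lone Dcr WT library assumed to vary like the knockout lines) and without Dcr WT library 1 it was -0.01. The knockout lines and Dcr WT library 2 were alike, and Dcr WT library 1 stood below them. XLOC_051295, the most abundant of all 1758, had 234 normalised reads in Dcr KO line 1, against 23622 and 34644 in lines 3 and 4, and 16128 and 10309 in Dcr WT libraries 1 and 2. Its log2 fold change was -1.16 ± 1.69 (limma adjusted p = 0.631), and without line 1 it was 1.15 (limma adjusted p = 0.0389). With all 5 libraries it was 0.57 by edgeR and 0.56 by DESeq2, so that the direction turned on that line and on the method.

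A search for features at least 10-fold lower in 1 Dcr library than in each of the other 4, where all 4 were at least 100, was made after this value was seen. For Dcr KO line 1 it found 15 features of all kinds, 4 of them well-expressed unannotated loci and the other 11 in the non-coding catalogues. The 4 loci are XLOC_051295, XLOC_010157, XLOC_010190 and XLOC_011334. Of the 11 non-coding features, 10 have names that the GRCm38.p6 annotation places on a single chromosome, among them Meg3, Rian and Mirg, which are maternally expressed non-coding RNAs of the imprinted Dlk1-Dio3 domain, and 7 microRNA genes. The eleventh had no match in that annotation. The 4 unannotated loci stood in line 1 at 0.173% to 1.09% of their mean in lines 3 and 4, and the 11 non-coding features at 0.251% to 0.887%.

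XLOC_010157 had 1.77 normalised reads in line 1, against 787 and 1270 in lines 3 and 4 and 447 and 513 in Dcr WT libraries 1 and 2. XLOC_010190 had 5.32 in line 1, against 307 and 666 in lines 3 and 4 and 197 and 248 in Dcr WT. XLOC_011334 had 3.55 in line 1, against 347 and 701 in lines 3 and 4 and 358 and 310.4 in Dcr WT. All 3 were nearly absent from line 1 and present in each other library, and none was called between genotypes. From XLOC_010157 to XLOC_010190 the table holds 7 unannotated loci, 2 of them above the threshold. Those 2 are the ends of the window and were found by the search as low in line 1, so the window was chosen after its values were seen. Line 1 was at 0 at 5 of the 7 and at most at 5.32, while the other 4 libraries had 6.04 to 1270 normalised reads. In the cMyc libraries XLOC_010157 had 47.1 in cMyc KO and 39 in cMyc flox.

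Meg3 had 555 normalised reads in line 1, against 63852 and 89316 in lines 3 and 4 and 38980 and 32396 in Dcr WT libraries 1 and 2. XLOC_051295 stood at 42.2%, 37.0% and 38.8% of Meg3 in Dcr KO lines 1, 3 and 4, at 41.4% and 31.8% in Dcr WT libraries 1 and 2, at 35.5% in cMyc KO and at 30.9% in cMyc flox. In line 1 both were far lower than in every other Dcr library, and the share was the highest of the 7. The files give XLOC_051295 no position, so whether it lies near Meg3 or shares reads with it was not tested.

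**Figure D3:**
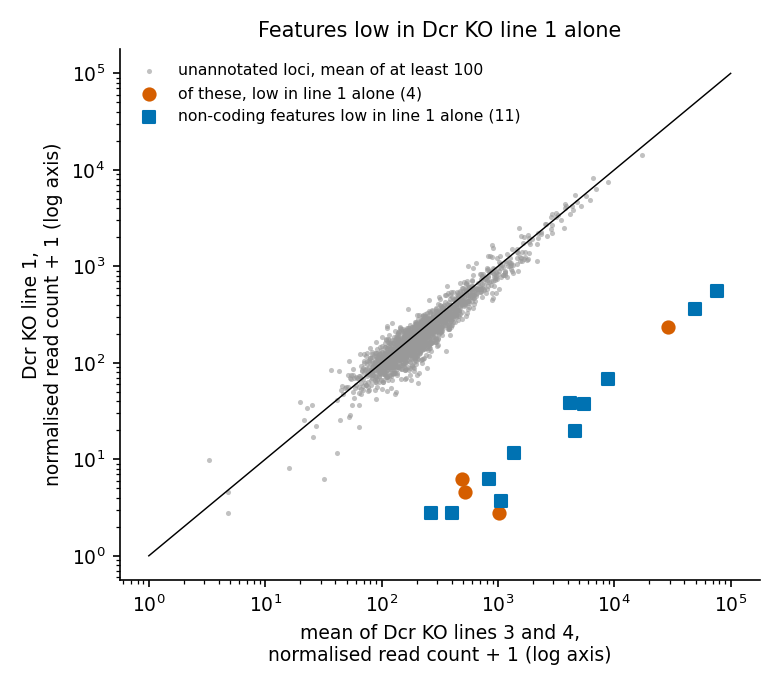
Normalised read count + 1 in Dcr KO line 1 against the mean of lines 3 and 4 (both log axes) for the 1758 loci (grey), the 4 of them that are at least 10-fold lower in line 1 than in each other Dcr library (circles) and the 11 non-coding features that meet the same rule (squares). The line marks equal values, and the 15 marked features form a group far below it.

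The same search found 0 well-expressed unannotated loci low in Dcr KO line 3 alone, 0 in line 4 alone and 0 in Dcr WT library 1 alone. It found 1 in Dcr WT library 2, XLOC_015368, which had 323, 357 and 399 normalised reads in Dcr KO lines 1, 3 and 4, against 203 and 18.3 in Dcr WT libraries 1 and 2 (log2 change 2.52 ± 0.76, adjusted p = 0.0320, limma). Over all 1758 loci, the highest of the 3 knockout lines was more than 2-fold above the lowest at 174, or 9.90%, against 2.98% of coding and 8.56% of catalogued non-coding features with a mean of at least 100. The 2 Dcr WT libraries were more than 2-fold apart at 218 loci, with library 2 higher at 146 and library 1 higher at 72. Line 4 was over 2-fold above both other knockout lines at 24 loci, line 1 at 2 and line 3 at 1, while line 1 was over 2-fold below both others at 15, line 3 at 11 and line 4 at 9. Held to a like level, the order was the other way: among coding features with a mean of 100 to 500, 12.6% had knockout lines more than 2-fold apart, against 10.1% of the 1531 unannotated loci in that range.

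Loci with neighbouring ID numbers moved together. Of the pairs whose IDs differ by 1, 319 have both loci above the threshold, and across them the log2 fold changes of the lower and the higher ID had a Pearson r of 0.91. At an ID distance of 2, 3 and 5, r was 0.85 (209 pairs), 0.76 (189 pairs) and 0.79 (130 pairs), and at 20 and 50 it was -0.15 (67 pairs) and 0.10 (60 pairs). These correlations are descriptions, since both loci of a pair are read from the same 5 libraries and a locus can enter 2 pairs. Both loci were called in 79 of the pairs with consecutive IDs, and in all 79 the direction was the same, with 60 pairs higher in Dcr KO and 19 lower. The files give no positions, so whether such pairs lie side by side or are pieces of one transcript was not tested.

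**Figure D4:**
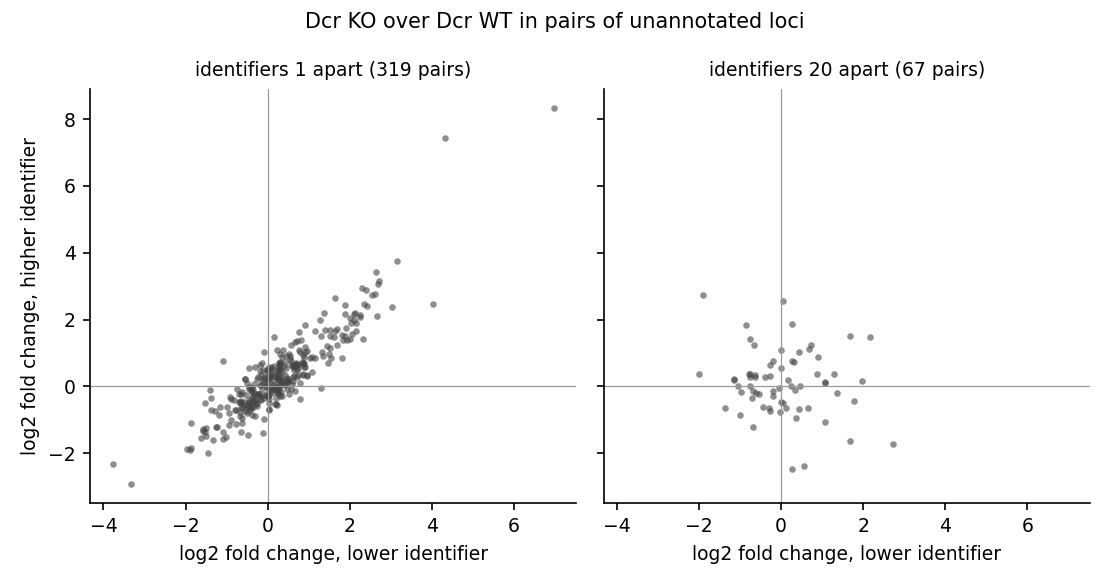
Log2 fold change of Dcr KO over Dcr WT at the locus with the higher ID against that at the locus with the lower ID, for pairs of well-expressed unannotated loci with IDs 1 apart (319 pairs, left) and 20 apart (67 pairs, right). The pairs 1 apart lie along a diagonal (r of 0.91), and those 20 apart do not (r of -0.15).

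Counted by run in place of by locus, runs with a rise still outnumbered those with a fall. Counting each run of consecutive IDs once gave 1439 runs, 238 of them with 2 or more loci and 557 loci in all. Of the runs, 351 held a locus called higher, 214 a locus called lower and 0 held both. A run counted if any of its loci was called, so longer runs had more chances. No such count over all features is given here, and the runs hold loci from the same choice, which gives the Dcr KO lines more weight. Joining IDs up to 5 apart gave 1132 groups, 302 with a higher call, 198 with a lower call and 7 with both. Of these groups with at least 3 loci, 20 had every locus called higher and 4 every locus called lower. The largest group held 11 loci, all called higher by limma, with log2 fold changes of 1.53 to 2.16. Another group of 8 loci, with log2 fold changes of 2.41 to 3.42, and one of 7, with 2.17 to 3.20, also had every locus called higher. Among the groups that fell, one of 4 loci ran from -1.87 to -1.09.

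The libraries of each genotype agreed in which loci were high. Over the 1758 loci, Pearson r of log2(value + 1) was 0.88 to 0.93 between knockout lines, 0.87 between the Dcr WT libraries and 0.43 to 0.48 between a Dcr KO and a Dcr WT library. The choice on the mean bounds the levels from below and affects these values, which are descriptions with no test. A locus low in 1 genotype could enter only if high in the other, which can pull r between genotypes down by an amount not tested.

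In the cMyc pair, the unannotated loci were more often lower than higher in cMyc KO. At least 20 reads over both libraries were found at 975 loci, while 770 listed loci had fewer and are not compared. Over these 975 the median log2 ratio of cMyc KO over cMyc flox was -0.35, and 73.3% were below 0. More than 2-fold higher in cMyc KO were 15 loci (1.54%), against 1.75% of all 17631 features with at least 20 reads, and more than 2-fold lower were 113 (11.6%), against 2.4% of all. Classes with a mean of at least 100 stood on both sides of the loci. The median log2 ratio was 0.11 over coding features, -0.27 over catalogued non-coding features and -0.45 over repeats, of which 0.600%, 9.14% and 13.9% were more than 2-fold lower. Of the unannotated loci below the threshold, 14.98% were. With a Dcr mean of 100 to 500, 12.9% of 770 unannotated loci were more than 2-fold lower. In that range the share was 12.1% of 663 catalogued non-coding and 2.59% of 1586 coding features. More than 2-fold higher were 1.95%, 2.87% and 7.69% of these classes. The fall was thus not seen at the well-expressed loci alone. These are 2 libraries, and no p-value is given.

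Counting error was large at these loci, whose median was 41 reads over both cMyc libraries. The exact 95% interval of the ratio, which covers counting error only, lay wholly below 1 at 187 loci and wholly above 1 at 18. Of the loci past 2-fold, the interval excluded 1 at 85 that were lower and at 6 that were higher. By range of reads, the median log2 ratio was -0.34 at 586 loci with 20 to 50 reads, -0.39 at 132 loci with 100 to 300 reads and -0.43 at 42 loci with 300 to 1000 reads, while coding features in the same ranges stood at 0.14, 0.12 and 0.07. The 7 loci with 1000 reads or more had a median of 0.17.

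**Figure D5:**
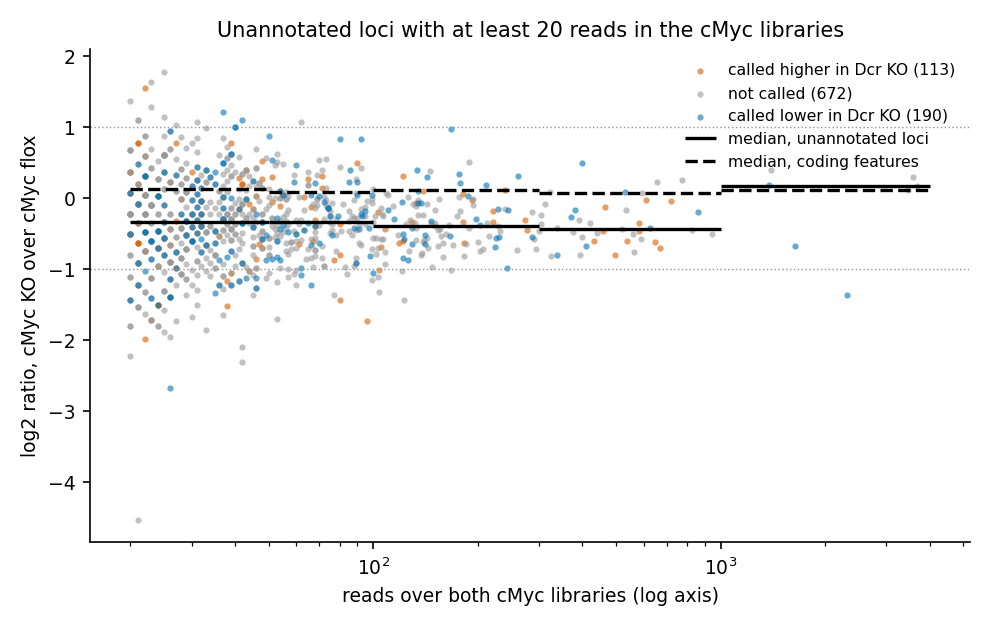
Reads over both cMyc libraries (log axis) against the log2 ratio of cMyc KO over cMyc flox for the 975 unannotated loci with at least 20 reads, coloured by the limma call in Dcr KO; dotted lines mark 2-fold. Solid and dashed segments give the median of the unannotated loci and of coding features in each range of reads, and the solid ones lie lower in every range below 1000 reads.

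Ribosomal RNA took 29.96% of recovered reads in cMyc KO and 28.1% in cMyc flox. Scaled by the reads outside ribosomal RNA, the median log2 ratio was -0.46 at the unannotated loci and 0.00 at coding features, since another factor shifts every ratio alike. Under that scaling 7 loci were more than 2-fold higher in cMyc KO and 154 lower.

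Among the most abundant loci, the eighth by mean was lower in both knockouts. It had 651 normalised reads in cMyc KO against 1676 in cMyc flox, a ratio of 0.388 (exact 95% interval 0.355 to 0.424), and 4179, 4776 and 3882 in Dcr KO against 5925 and 6625 in Dcr WT (log2 fold change -0.56 ± 0.15, limma adjusted p = 0.0230). The third by mean had 626 in cMyc KO against 1001 in cMyc flox, a ratio of 0.625 (0.566 to 0.691). XLOC_051295 had 1908 in cMyc KO against 1559 in cMyc flox, a ratio of 1.22 (1.15 to 1.31), and XLOC_022047 had 1886 against 1673, a ratio of 1.13 (1.06 to 1.20). Of the 10 most abundant loci, these 2 alone had a ratio above 1. Of the 181 loci with at least 100 reads, the lowest ratio was 0.370 (0.245 to 0.550) and the highest 1.96 (1.40 to 2.77).

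Among loci with at least 20 reads, the median ratio in the cMyc pair lay between -0.36 and -0.33 on the log2 scale whichever way a locus was called in Dcr KO. These are 113 of the 411 loci called higher in Dcr KO and 190 of the 236 called lower, so most loci called higher are not covered. The median log2 ratio of cMyc KO over cMyc flox was -0.33 over 113 loci called higher in Dcr KO, -0.36 over 672 not called and -0.34 over 190 called lower. The counts past 2-fold lower in cMyc KO were 12, 81 and 20 of these, or 10.6%, 12.1% and 10.5%. Across the 975 loci, the Dcr log2 fold change and the cMyc log2 ratio had a Pearson r of -0.07 and a Spearman rho of -0.03, given as a description. At coding features the medians were 0.06 over those called higher in Dcr KO, 0.11 over those not called and 0.15 over those called lower. The Dcr and cMyc comparisons share no library.

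As to whether a name stands for the same locus in both tables, the ranks of the levels in Dcr WT and in cMyc flox can be set side by side. Spearman's rho between the Dcr WT mean and the cMyc flox value was 0.74 over 1745 unannotated loci and 0.95 over 13553 coding features, with no test. The cMyc libraries are single-end and shallower and come from other lines than the Dcr libraries, and the part of each in that difference was not tested.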

How the data were processed

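The authors deposited a table of normalised read counts (unit signal) for the 5 Dcr libraries, with 48942 features, and another for the 2 cMyc libraries, with 39889. The submitters' processing notes list TopHat, Bowtie, DESeq and mm9 without versions or roles. The sources used here do not give the counting tool, its use of strand or the libraries behind the unannotated loci, and near-identical or overlapping loci may share reads. Each deposited column is a read count divided by 1 factor: within 0.01 read, 100% of values in the Dcr table and 99.997% in the cMyc table divided into whole reads. Columns of no sample numbered 0. Gene symbols come from GRCm38.p6 (20183 of 20559 RefSeq identifiers matched).

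Dcr KO lines 1, 3 and 4 were compared with Dcr WT libraries 1 and 2 on log2(value + 1) by limma 3.58.1 in R 4.3.3, using its trended empirical Bayes test, two-sided, with Benjamini-Hochberg adjustment over the 42358 features with at least 1 in 2 libraries. The pseudocount shrinks the fold changes of low loci, but a difference of mean logs can also exceed the ratio of means where libraries of a group differ. On recovered reads, edgeR 4.0.16 (quasi-likelihood) and DESeq2 1.42.0 were alternatives. On simulated data the limma step was checked to recover known changes. The simulation gave every feature the same dispersion, changed only features with a mean of at least 100 and held no outlying library. It was thus simpler than these data. The cMyc ratio uses deposited values, with exact conditional binomial intervals (scipy 1.17.1) and at least 20 reads. Intervals cover counting error only. Loci were named by rule: the 2 highest and 2 lowest fold changes among called loci, and the 2 most abundant not called; others by rank or count, with exceptions stated. The loci, marker lists and comparisons were chosen with earlier results of these data known.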

Additional observations from a re-analysis of the deposited data

How the results depend on the processing

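Against 411 higher and 236 lower calls with limma, edgeR gave 398 and 237, of which 394 and 229 were the same loci in the same direction, and DESeq2 434 and 274. No call turned to the opposite direction under any setting tried. Without a filter on low values, 245 loci were called higher; the cause was not tested. Leaving out 1 library at a time gave 269 to 482 higher and 139 to 262 lower calls, with 245 and 126 loci called in all 5 of these fits; the lone Dcr WT library is then assumed to vary like the knockout lines. The other settings on the scale kept both counts within 1.5 times, with 60.0% to 67.9% of calls higher under 3 other scalings. Changing the rule changes the number of loci. A mean of 50 gave 3704 loci, with 764 higher and 442 lower calls (32.6% called) and 1268 and 909 loci not overlapping. A mean of 200 gave 777 loci, with 196 and 112 calls (39.6%) and 278 and 193 not overlapping. Both genotype means of at least 100 gave 1225 loci, with 171 and 128 calls (24.4%), a rule that leaves out loci far apart between genotypes and so lowers the share called. Over all features tested 31.7% were called, and the genotypes did not overlap at 30.0% higher in Dcr KO and 27.4% lower. In the cMyc pair, the loci past the fold in cMyc KO were 59 higher and 311 lower at 1.5-fold, 2 and 22 at 3-fold, 45 and 210 with at least 10 reads, and 1 and 22 with at least 50. Under both other scalings 7 were higher and 154 lower. The median cMyc log2 ratio of loci called lower in Dcr KO was -0.44 when scaled outside ribosomal RNA and -0.34 to -0.22 when the calls left out 1 Dcr library. With 1 library left out, the limma log2 fold change of XLOC_051295 ran from -2.45 to 1.15, reversed without Dcr KO line 1. That of XLOC_022047 ran from -0.01 (without Dcr WT library 1) to 1.58. With no library left out, edgeR and DESeq2 also reversed the direction at XLOC_051295, to 0.57 and 0.56. Runs of consecutive IDs were counted once as an alternative chosen after seeing the data. No paired analysis was possible because no label links a Dcr KO line with a Dcr WT library. Depth limits the cMyc pair, where 770 of 1745 listed loci had under 20 reads.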
